A study of Homo sapiens with 30 samples.

Results

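The 9 genes of MHC class I antigen presentation followed here were read through all 10 conditions of the series. They are HLA-B, HLA-C, HLA-E, B2M, TAP1, TAP2, TAPBP, PSMB8 and PSMB9. They were taken by gene symbol, 9 of 23616 genes in the expression files. The study asked how androgen affects the agonism of enzalutamide, an androgen receptor antagonist, on a receptor carrying the F877L substitution, and what the BET bromodomain inhibitor JQ-1 does to it. RNA-seq covered 30 samples, 3 replicates of each condition.

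V16D is a castration-resistant line derived from LNCaP prostate cancer cells, and MR49F is its enzalutamide-resistant relative, which carries F877L on some of its receptor copies. Each is a single line, so a difference between them belongs to these lines and to no wider class. Per the paper, MR49F was grown routinely with 10 µM enzalutamide, which it does not state for V16D. MR49F vehicle samples were thus taken from cells with earlier drug exposure, and this cannot be told apart from line. In full serum (FBS), V16D and MR49F cells received vehicle or 10 µM enzalutamide for 24 h, 12 samples in all. In charcoal-stripped serum (CSM), from which steroids are removed, MR49F cells alone were held for 72 h and then received vehicle, 10 µM enzalutamide, 1 nM dihydrotestosterone (DHT, the potent androgen), 500 nM JQ-1, or either ligand together with JQ-1, for 24 h, 18 samples in all. The study calls its replicates biological and combined a pair of wells for each, but whether they came from separate cultures is not stated, so the p-values measure the spread between these samples, which may be technical.

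MHC class I molecules show peptides from inside the cell to CD8 T cells. The proteasome cuts proteins into peptides, and the immunoproteasome subunits PSMB8 and PSMB9 replace constitutive ones and change which peptides form. The TAP1-TAP2 transporter moves peptides into the endoplasmic reticulum, where TAPBP (tapasin) holds empty class I molecules next to it. A heavy chain such as HLA-B, HLA-C or HLA-E then pairs with the light chain B2M (beta-2-microglobulin) and the peptide, and the complex travels to the cell surface. Interferons raise most of these genes through IRF1 and the transactivator NLRC5. Low class I is a known feature of many prostate cancer lines.

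Of the 9 genes, 8 lie on chromosome 6 in the MHC, here in GRCh37 coordinates of the GENCODE annotation. HLA-E spans chr6:30457286-30461971 on the plus strand, HLA-C chr6:31236526-31239907 and HLA-B chr6:31321649-31334844 on the minus strand. The class II region holds TAP2 at chr6:32789610-32806516, PSMB8 at chr6:32808494-32812456 and TAP1 at chr6:32812986-32821593, all minus, with PSMB9 at chr6:32811913-32827628 on the plus strand. TAPBP lies at chr6:33267471-33282061 on the minus strand, and B2M lies apart from the rest, at chr15:45003556-45011049 on the plus strand. The antisense gene PSMB8-AS1 at chr6:32811855-32814277, on the plus strand, overlaps PSMB8, PSMB9 and TAP1. The span of PSMB9 also overlaps PSMB8 and encloses TAP1, which lie on the opposite strand. No source used here states how strand was treated in quantification, and whether opposite-strand reads enter the FPKM of these genes was not tested.

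The start sites of B2M, which was higher with DHT in stripped serum, of HLA-B, TAP1 and TAPBP, which were lower, and of TAP2, which was lower with JQ-1, are shown to place the shared motifs of class I promoters. Each is the 250 bases before a RefSeq start site in GRCh38.p14, 5′ to 3′ on the gene's strand: HLA-B from chr6:31357180-31357429 (minus), TAP1 from chr6:32853705-32853954 (minus), TAPBP from chr6:33314079-33314328 (minus), TAP2 from chr6:32838740-32838989 (minus) and B2M from chr15:44711267-44711516 (plus). Capitals mark matches, on either strand, of 5 motifs, which are spelled out after the sequences. For TAP1 the table holds another start site, at chr6:32852762-32853011, which has no match of any of them and is not printed, and a member is counted below if any of its start sites has the motif.
HLA-B: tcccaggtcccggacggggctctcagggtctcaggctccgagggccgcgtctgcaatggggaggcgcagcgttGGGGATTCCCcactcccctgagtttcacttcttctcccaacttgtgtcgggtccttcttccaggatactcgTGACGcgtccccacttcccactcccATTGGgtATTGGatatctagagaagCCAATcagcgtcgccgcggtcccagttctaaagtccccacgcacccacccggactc
TAP1: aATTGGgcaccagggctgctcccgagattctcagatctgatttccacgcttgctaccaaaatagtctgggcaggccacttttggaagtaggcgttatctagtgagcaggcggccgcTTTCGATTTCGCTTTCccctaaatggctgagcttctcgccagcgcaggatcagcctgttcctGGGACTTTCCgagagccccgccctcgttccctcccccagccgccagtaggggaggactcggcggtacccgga
TAPBP: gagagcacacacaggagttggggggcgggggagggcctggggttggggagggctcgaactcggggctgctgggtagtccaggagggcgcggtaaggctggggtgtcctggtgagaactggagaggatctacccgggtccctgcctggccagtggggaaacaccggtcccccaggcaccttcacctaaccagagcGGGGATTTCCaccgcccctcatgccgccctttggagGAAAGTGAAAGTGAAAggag
TAP2: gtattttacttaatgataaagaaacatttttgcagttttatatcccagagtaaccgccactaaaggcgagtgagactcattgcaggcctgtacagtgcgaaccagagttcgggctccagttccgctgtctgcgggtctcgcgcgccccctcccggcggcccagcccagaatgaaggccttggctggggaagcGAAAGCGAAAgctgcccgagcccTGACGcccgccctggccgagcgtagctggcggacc
B2M: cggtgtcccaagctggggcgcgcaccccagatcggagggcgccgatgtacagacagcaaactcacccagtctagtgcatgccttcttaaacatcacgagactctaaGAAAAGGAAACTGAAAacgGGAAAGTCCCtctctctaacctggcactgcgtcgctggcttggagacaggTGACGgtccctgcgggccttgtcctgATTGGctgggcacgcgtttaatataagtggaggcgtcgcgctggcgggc

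GAAA, any 2 bases and again GAAA, the core of the interferon-stimulated response element, lay upstream of B2M, TAP1, TAP2 and TAPBP, 4 of the 8 members with a promoter in the table, against 3.02% of 35116 promoters. For each motif this share counts every start site as a promoter, whereas members are counted by gene, so the units differ. In B2M, TAP1 and TAPBP a pair of such matches overlapped. The kappaB motif, GGG, any 2 bases, TT, any base and CC, lay upstream of B2M, HLA-B, TAP1 and TAPBP, against 5.07% of promoters. CCAAT was found in 5 of 8 (32.0% of promoters) and TGACG, the core of the cyclic AMP response element, in 6 of 8 (21.2%). AGAACA, a half-site of steroid hormone receptors, lay upstream of PSMB8 alone among the 8 (12.4%). The start site of HLA-C, which fell with DHT by both tests, is not printed. It had 4 matches of CCAAT, 1 of TGACG and 0 of the other motifs, kappaB among them. All of these are matches of letters, not measured binding.

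The depth behind these genes was uneven. Reads counted on genes numbered 13170504 to 21154962 per sample in full serum and 982130 to 1813262 in stripped serum, where they made up only 5.13% to 7.66% of the reads placed on or between genes. In addition, the FPKM files list 8 of the 9 members more than 1 time under the same accession (B2M is the exception), and reads placed at several sites were left out of the counts. HLA-E, TAP1, PSMB8 and PSMB9 had 0 counted reads in all 30 samples, and TAP2 had at most 1. TAPBP had 3 to 18 reads in full serum and 0 in all stripped-serum samples. Across 248 genes of at least 1 FPKM with a repeated accession, 96.8% had under 10 reads per FPKM, against 9.08% of 12447 genes without one.

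**Figure D1:**
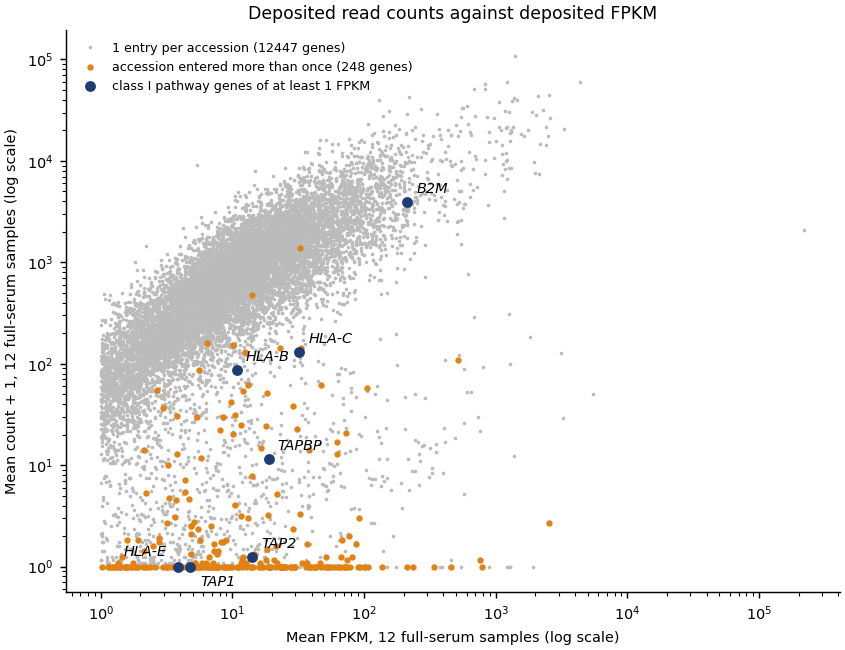
Mean read count plus 1 against mean FPKM over the 12 full-serum samples, both on log axes, for genes of at least 1 FPKM. Grey points are 12447 genes with 1 entry per accession, orange points 248 genes with a repeated accession, and blue points the 7 members at this level. B2M lies within the grey cloud, HLA-B, HLA-C and TAPBP below it, and TAP1, HLA-E and TAP2 at or next to 0 reads.

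FPKM (fragments per kilobase of transcript, scaled to the fragments mapped in the sample) was therefore the measure for all 9 members, with the rows of a gene summed. Differences are given on the log2(FPKM + 1) scale with their SE, tested with limma across all genes and Benjamini-Hochberg adjusted, with a threshold of 0.05; this scale understates changes of low genes, so ratios of mean FPKM are given as folds. Only HLA-B (26 to 124 reads), HLA-C (56 to 246) and B2M (2994 to 4888 in full serum and 87 to 318 in stripped serum) could be tested by edgeR on the counts in each comparison. In stripped serum a gene is said to have risen or fallen only where both tests passed, and "higher in FPKM" or "lower in FPKM" stands for a call of limma alone. The stripped-serum counts have a limit of their own: B2M had a median of 18.3 reads per FPKM in full serum and 0.629 in stripped serum, the libraries were strand-specific, and no source used here gives the strand on which reads were counted, so these counts may hold reads of the opposite strand, which was not tested. Levels of the HLA genes are uncertain, because their reads are shared with near-identical paralogs and the alleles of these lines differ from the reference.

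B2M was the most abundant member everywhere, at 189 to 393 FPKM per sample. HLA-C ranged from 25.8 to 65.0 FPKM, HLA-B from 9.15 to 26.6, TAPBP from 11.7 to 36.6 and TAP2 from 1.16 to 15.7. TAP1 ranged from 3.12 to 10.2 and HLA-E from 1.72 to 11.5. PSMB8 did not exceed 0.231 FPKM in any sample, and PSMB9 reached 1 FPKM in 9 of 30 samples with a highest value of 1.88. PSMB8 and PSMB9 thus lay near the bottom of the scale, far below the constitutive subunits PSMB5 and PSMB6, which are described further on.

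**Figure D2:**
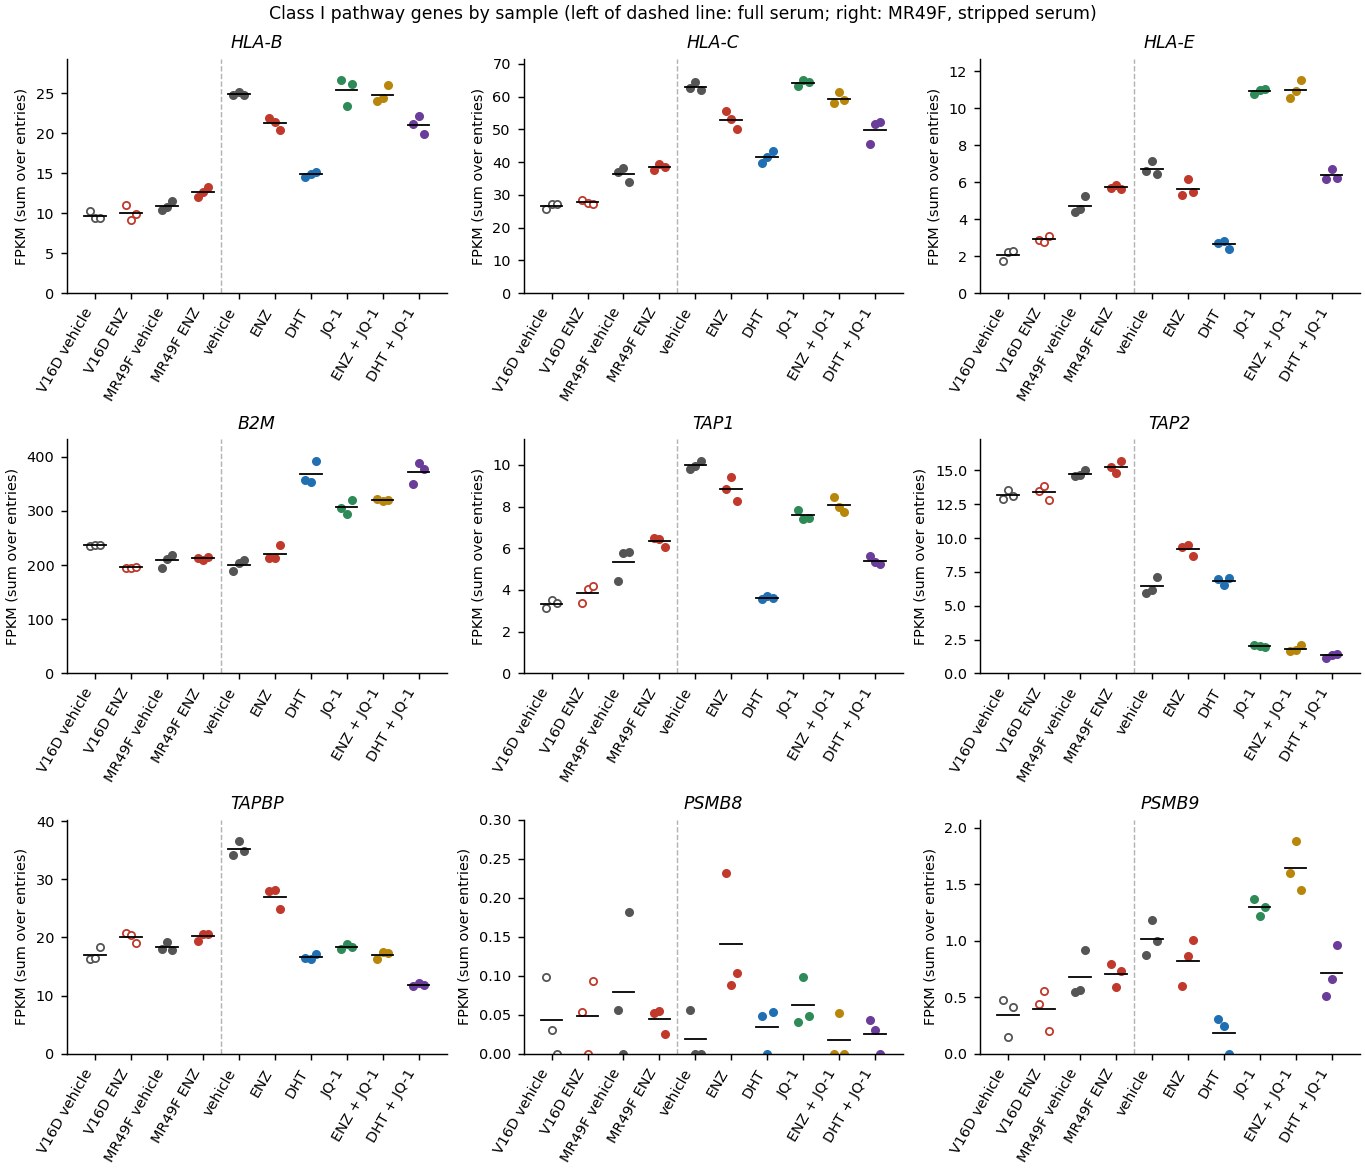
FPKM of each member in every sample (points) by condition, with the mean of 3 replicates as a line, V16D as open points, and full serum left of the dashed line. HLA-B, HLA-C, TAP1 and TAPBP are lower with DHT than with vehicle in stripped serum, B2M is higher, and TAP2 drops wherever JQ-1 was added.

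The label of prostate epithelial cells was checked on markers. All 7 luminal prostate markers (KLK3, TMPRSS2, FOLH1, KRT8 and KRT18 among them) averaged at least 1 FPKM in every condition, and 0 of 3 basal markers did. Of 8 immune cell markers, which matter here since immune cells carry abundant class I, CD68 and LYZ passed 1 FPKM in full serum and CD68 alone in stripped serum, with CD3E at or near 0 throughout. KLK3, the androgen target that encodes PSA, served as a check of the treatments. It fell with enzalutamide in V16D cells (-1.93 ± 0.03, SE, adjusted p = 8.11e-08), rose in stripped serum with enzalutamide (2.83-fold, adjusted p = 5.89e-08) and with DHT (2.15 ± 0.05, adjusted p = 4.92e-09), and fell with JQ-1 (-5.15 ± 0.05, adjusted p = 1.74e-10). Replicate 1 of vehicle-treated MR49F cells in full serum differed from its fellows by 9.87 and 11.6 times the counting noise (chi-square per degree of freedom). The other pairs of replicates gave 1.13 to 2.82. Calls of members by limma that rest on this library are given with and without it. Tests on counts, ratios and values of other genes that use it are given with it only.

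With DHT in stripped serum, B2M and 5 other members differed from vehicle in opposite directions. B2M rose 1.84-fold and HLA-C fell to 0.659 of vehicle by both tests, while TAP1, HLA-E, TAPBP and HLA-B were lower in FPKM, at 0.364 to 0.598 of vehicle. Of the 7 members tested, 6 passed, 1 higher and 5 lower, in a comparison in which 72.1% of 12180 genes passed, 28.9% higher and 43.2% lower. By edgeR 2 of 3 countable members passed, against 37.5% of 11004 genes. The median difference of these members was -0.71, against -0.08 over all genes tested.

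TAP1, the ATP-binding transporter subunit, gave 9.79, 9.95 and 10.2 FPKM with vehicle and 3.58, 3.71 and 3.60 FPKM with DHT. The groups lay far apart, with a difference of -1.25 ± 0.04 (adjusted p = 4.22e-08). TAPBP, the bridge between transporter and class I, gave 34.2, 36.6 and 34.9 FPKM with vehicle and 16.4, 16.4 and 17.1 FPKM with DHT. It too was lower in all 3 DHT samples (-1.04 ± 0.04, adjusted p = 8.98e-08). TAP2, the partner of TAP1 in the same heterodimer, gave 5.98, 6.15 and 7.14 FPKM with vehicle and 6.99, 6.51 and 7.06 FPKM with DHT, and its groups overlapped (0.08 ± 0.07, adjusted p = 0.276). Without vehicle replicate 3, TAP2 passed at 0.15 (adjusted p = 0.0373), as it did with median-of-ratios scaling at 0.16 (adjusted p = 0.0422). TAP1 stood at 1.56 ± 0.12 (SD, n = 3) times the FPKM of TAP2 in vehicle samples and at 0.530 ± 0.034 in DHT samples. TAP1, TAP2 and TAPBP had no usable counts here, so no count test could be made for them.

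Among the heavy chains, HLA-C, a presenter to T cells and ligand of killer cell receptors, gave 62.6, 64.4 and 62.2 FPKM with vehicle and 39.7, 41.7 and 43.4 FPKM with DHT. All DHT samples were lower (-0.59 ± 0.04, adjusted p = 3.65e-06), and HLA-C also fell by edgeR on counts (-0.46 ± 0.14, adjusted p = 0.0149), although not by DESeq2 (-0.43). HLA-B, a classical presenter to CD8 T cells, gave 24.8, 25.1 and 24.8 FPKM with vehicle and 14.5, 14.9 and 15.2 FPKM with DHT. The groups did not overlap in FPKM (-0.71 ± 0.04, adjusted p = 5.34e-07), whereas 43 to 54 against 33 to 40 counted reads gave -0.30 ± 0.19 by edgeR (adjusted p = 0.229). HLA-E, the nonclassical chain read by NKG2A on natural killer cells, gave 6.58, 7.14 and 6.43 FPKM with vehicle and 2.72, 2.83 and 2.37 FPKM with DHT, a difference of -1.08 ± 0.06 (adjusted p = 1.12e-06).

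B2M, the light chain shared by all class I molecules, went the other way with DHT. It gave 189, 203 and 209 FPKM with vehicle and 358, 354 and 393 FPKM with DHT. Every DHT sample was above every vehicle sample, by 0.87 ± 0.06 (adjusted p = 2.07e-06) and by 0.82 ± 0.14 in edgeR on counts (adjusted p = 3.78e-05). The ratio of B2M to the sum of HLA-B and HLA-C FPKM went from 2.28 ± 0.12 to 6.51 ± 0.24 (SD, n = 3). PSMB9 averaged 1.02 FPKM with vehicle and 0.185 with DHT and, like PSMB8 (0.0186 and 0.0340), was under the filter of 1 FPKM in 3 samples and was not tested. Of the other cell types checked, the 8 immune markers summed to 2.77 to 3.04 FPKM per sample with vehicle and 3.64 to 4.17 with DHT (1 of 8, CD68, at 1 FPKM or more, CD3E at 0 in both groups), and the 6 stromal and endothelial markers to 2.29 to 2.51 and 0.855 to 1.16 (COL1A2 at 0). Their part in the result was not tested.

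**Figure D3:**
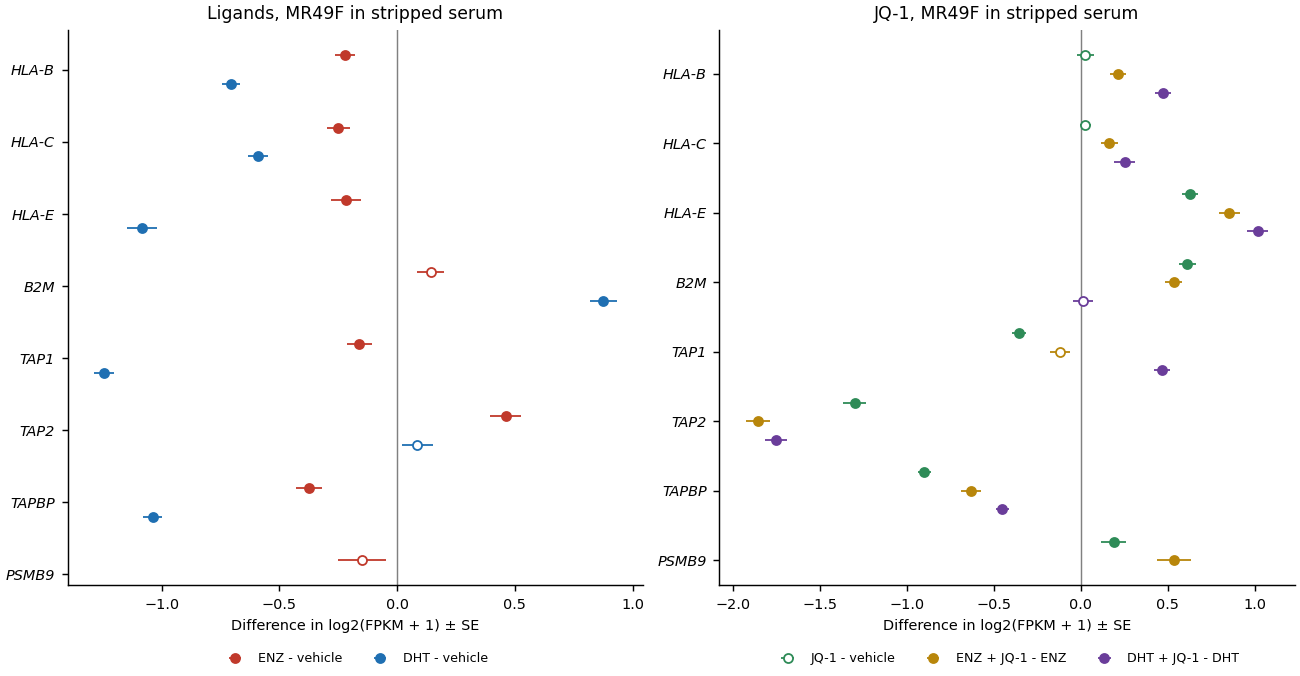
Difference on the log2(FPKM + 1) scale with its SE for each member in the stripped-serum comparisons, with the ligands against vehicle on the left, JQ-1 against the matching sample without it on the right, filled points with an adjusted p of at most 0.05 and open points above it. B2M lies to the right of 0 and TAP1, HLA-E, TAPBP, HLA-B and HLA-C to the left with DHT, and TAP2 lies furthest to the left in each JQ-1 comparison.

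Enzalutamide in stripped serum gave smaller differences. TAPBP, HLA-C, HLA-B, HLA-E and TAP1 were lower in FPKM, at 0.766 to 0.885 of vehicle, and TAP2 was higher in FPKM at 1.43-fold, while B2M (221 against 200.2 FPKM) did not pass. Of the 8 members tested 6 passed by limma, against 38.7% of 12178 genes (19.3% in each direction). By edgeR 0 of the 3 countable members passed, 0 at an unadjusted p under 0.05, where 7.26% of 11131 genes passed, so no member is said to have risen or fallen. The 8 immune markers summed to 3.14 to 3.53 FPKM per sample, above vehicle, and the 6 stromal and endothelial markers to 1.69 to 1.92, below vehicle, with COL1A1 lower in FPKM (-0.28 ± 0.07, adjusted p = 0.012). Their part in the result was not tested.

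TAPBP gave 28.0, 28.2 and 24.8 FPKM with enzalutamide, below all vehicle samples (34.2 to 36.6), a difference of -0.37 ± 0.06 (adjusted p = 0.00094). HLA-C gave 55.5, 53.2 and 50.0 FPKM (-0.25 ± 0.05, adjusted p = 0.00326) and HLA-B 21.9, 21.4 and 20.4 FPKM (-0.22 ± 0.04, adjusted p = 0.0034). Both heavy chains lay below their vehicle samples, but HLA-B turned to 0.03 ± 0.20 by edgeR on counts (adjusted p = 0.961). HLA-E (-0.22 ± 0.06, adjusted p = 0.0248) and TAP1 (-0.16 ± 0.05, adjusted p = 0.0391) passed by little. Leaving out single libraries ended the call of HLA-E in 3 cases, vehicle replicate 2 and enzalutamide replicates 1 and 3 (adjusted p = 0.0675 to 0.0846), and that of TAP1 in 5 cases, each vehicle replicate and enzalutamide replicates 1 and 3 (adjusted p = 0.0707 to 0.101). TAP2 gave 9.37, 9.49 and 8.70 FPKM, above every vehicle and DHT sample (0.46 ± 0.07, adjusted p = 0.000733). B2M gave 213, 214 and 237 FPKM against 189 to 209 with vehicle, with 0.14 ± 0.06 (adjusted p = 0.0845). It passed by limma with all stripped-serum groups in a single fit (adjusted p = 0.0457).

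Set against each other, DHT and enzalutamide differed in all 7 members tested by limma, against 57.4% of 12029 genes, and in 1 of 3 by edgeR, against 19.4% of 10916, and the doses were those of the study and not matched. With DHT, B2M rose 1.66-fold over enzalutamide by both tests (0.73 ± 0.06, adjusted p = 9.96e-06, and 0.75 ± 0.13 by edgeR, adjusted p = 0.000204). TAP1 (-1.09 ± 0.06, adjusted p = 5.73e-07), HLA-E (-0.87 ± 0.07, adjusted p = 1.13e-05) and TAPBP (-0.67 ± 0.06, adjusted p = 1.12e-05) were lower in FPKM than with enzalutamide. HLA-B (-0.49), TAP2 (-0.38) and HLA-C (-0.34) were lower too in FPKM, and HLA-B and HLA-C did not pass by edgeR (adjusted p = 0.265 and 0.228). This comparison and both comparisons against vehicle share samples and are not independent.

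JQ-1 alone gave a different set of directions. B2M rose 1.53-fold by both tests, HLA-E (1.63-fold) and PSMB9 (1.28-fold) were higher in FPKM, and TAP2, TAPBP and TAP1 were lower in FPKM, at 0.313, 0.523 and 0.759 of vehicle. HLA-B and HLA-C differed by 0.03 each with overlapping samples. Of the 8 members tested 6 passed, 3 in each direction, against 75.1% of 12203 genes, 32.5% higher and 42.6% lower. PSMB9, counted among the 3 higher, met the filter through the JQ-1 samples, where it was high. By edgeR 1 of 3 passed, against 46.6% of 11332 genes.

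TAP2 gave 2.08, 2.02 and 1.93 FPKM with JQ-1 against 5.98 to 7.14 with vehicle, the widest gap of any member (-1.30 ± 0.07, adjusted p = 5.44e-07). TAPBP gave 18.0, 18.9 and 18.4 FPKM (-0.90 ± 0.04, adjusted p = 2.22e-07) and TAP1 7.86, 7.43 and 7.44 FPKM (-0.36 ± 0.04, adjusted p = 5.69e-05), both below all vehicle samples. HLA-E gave 10.8 to 11.1 FPKM in the 3 samples, above all vehicle samples (0.63 ± 0.05, adjusted p = 3.93e-06). B2M gave 305, 295 and 319.8 FPKM (0.61 ± 0.05, adjusted p = 6.78e-06, and 0.65 ± 0.11 by edgeR, adjusted p = 4.75e-06). PSMB9 gave 1.37, 1.22 and 1.30 FPKM against 0.872 to 1.18 (0.19 ± 0.07, adjusted p = 0.0391), a call that ended in 5 cases, without vehicle replicate 1 or 3 or any of the JQ-1 replicates (adjusted p = 0.0546 to 0.148). The vehicle samples alone did not meet the filter of 1 FPKM in 3 samples. PSMB9 met it through the JQ-1 samples, where it was higher, so this call is no independent support. SYP, the only neuroendocrine marker at or above 1 FPKM in these samples, moved with JQ-1 as well, and the summed level of the 3 such markers was 1.12 to 1.89 FPKM per sample in stripped serum without JQ-1 and 6.92 to 9.72 with it. The 8 immune markers summed to 1.95 to 2.43 FPKM with JQ-1, below vehicle. Their part in the members' differences was not tested.

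TAP2 and TAPBP were again lower in FPKM when JQ-1 was added to enzalutamide or to DHT. With enzalutamide, TAP2 went from 8.70 to 9.49 FPKM down to 1.64 to 2.07 (-1.86 ± 0.07, adjusted p = 6.04e-08), and with DHT from 6.51 to 7.06 down to 1.16 to 1.46 (-1.75 ± 0.06, adjusted p = 9.19e-08). These are 0.198 and 0.194 of the level without JQ-1, and TAP2 was thereby lowest in the 3 JQ-1 conditions of all 10. TAPBP was at 0.631 (-0.63 ± 0.06, adjusted p = 9.85e-06) and 0.715 (-0.45 ± 0.04, adjusted p = 9.17e-06) of the level without JQ-1.

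HLA-E was higher in FPKM with JQ-1 on both backgrounds, 10.6, 10.9 and 11.5 FPKM against 5.31 to 6.18 with enzalutamide (0.85 ± 0.06, adjusted p = 2.4e-06) and 6.18, 6.71 and 6.22 against 2.37 to 2.83 with DHT (1.02 ± 0.06, adjusted p = 1.41e-06). The groups did not overlap in either case. HLA-B and HLA-C were also higher in FPKM, HLA-B by 0.22 ± 0.05 (adjusted p = 0.00236) on enzalutamide and 0.47 ± 0.05 (adjusted p = 2.37e-05) on DHT, and HLA-C by 0.17 ± 0.05 (adjusted p = 0.0102) and 0.25 ± 0.06 (adjusted p = 0.00418). Neither passed by edgeR, where HLA-B on enzalutamide turned to -0.12 ± 0.21 (adjusted p = 0.687) and HLA-C on DHT reached 0.34 ± 0.15 (adjusted p = 0.0554). PSMB9 gave 1.60, 1.88 and 1.45 FPKM with enzalutamide and JQ-1 against 0.604 to 1.01 with enzalutamide (0.54 ± 0.10, adjusted p = 0.000903). It met the filter of 1 FPKM in 3 samples through the group with JQ-1, where it was high. Its entry into the test thus depended on the difference, and the call is no independent support. On DHT it did not meet the filter and was not tested.

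TAP1 and B2M passed with JQ-1 on 1 background each. With DHT and JQ-1, TAP1 gave 5.62, 5.34 and 5.25 FPKM, above the 3.58 to 3.71 with DHT alone (0.47 ± 0.05, adjusted p = 2.33e-05), whereas on enzalutamide it gave 8.43, 7.97 and 7.75 against 8.25 to 9.40 (-0.12 ± 0.06, adjusted p = 0.0887, passing at 0.0302 without enzalutamide replicate 3). B2M rose with JQ-1 on enzalutamide, to 322, 318 and 321 FPKM (0.53 ± 0.05, adjusted p = 8.6e-06, and 0.77 ± 0.11 by edgeR, adjusted p = 1.9e-06). On DHT it gave 350.1, 388 and 377 FPKM, overlapping with DHT alone (0.01 ± 0.06, adjusted p = 0.82). In all, 7 of 8 members passed on enzalutamide, 5 higher and 2 lower, and 6 of 7 on DHT, 4 higher and 2 lower, against 75.7% of 12148 genes (31.2% higher, 44.4% lower) and 78.8% of 11856 genes (35.5% higher, 43.3% lower). The 5 higher on enzalutamide include PSMB9, which met the filter through the group with JQ-1. By edgeR 1 of 3 passed on enzalutamide (45.1% of 10863 genes) and 0 of 3 on DHT, 1 at an unadjusted p under 0.05 (54.7% of 10779).

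Interaction terms tested whether JQ-1 altered the differences made by the ligands. For DHT, 7 of 8 members passed, against 48% of 12469 genes. The DHT difference of TAP1 was 0.82 ± 0.05 less negative with JQ-1 than without (adjusted p = 2.45e-07), that of TAPBP 0.45 ± 0.05 (adjusted p = 1.76e-05) and that of HLA-B 0.45 ± 0.07 (adjusted p = 0.000247). The DHT difference of B2M was smaller with JQ-1 than without (-0.60 ± 0.08, adjusted p = 7.25e-05), which held by edgeR (-0.47 ± 0.16, adjusted p = 0.0465) but not by DESeq2. TAP2 (-0.45), HLA-E (0.39) and HLA-C (0.23) passed as well by limma. For enzalutamide, TAP2 (-0.56 ± 0.10, adjusted p = 0.00227), TAPBP (0.27 ± 0.07, adjusted p = 0.0217) and TAP1 (0.24 ± 0.07, adjusted p = 0.0296) passed, 3 of 8 members against 19.2% of 12454 genes. Only TAP2 was left without vehicle replicate 2. The call of TAPBP also ended without replicate 2 of enzalutamide with JQ-1 (adjusted p = 0.0517), and that of TAP1 in 7 cases (adjusted p = 0.0517 to 0.0679). By edgeR 1 of 3 passed for DHT (12.3% of 11572 genes) and 0 of 3 for enzalutamide (0.895% of 11625), 0 at an unadjusted p under 0.05.

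In full serum, enzalutamide moved few members. In V16D cells B2M fell to 0.825 of vehicle by both tests, and HLA-E (1.41-fold) and TAPBP (1.18-fold) rose by limma, 3 of 7 members against 30.4% of 12497 genes by limma, and 1 of 4 by edgeR against 37.5% of 14079. In MR49F cells 0 of 7 passed by limma, with 3 at an unadjusted p under 0.05, and 0 of 3 by edgeR, with 0 unadjusted, against 4.6% of 12496 genes by limma and 8.48% of 13927 by edgeR.

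B2M in V16D cells gave 236, 238 and 237 FPKM with vehicle and 195, 195 and 196 FPKM with enzalutamide. The samples within a group were almost equal and the groups apart (-0.28 ± 0.02, adjusted p = 0.000134, and -0.31 ± 0.03 by edgeR, adjusted p = 4.71e-27). HLA-E in V16D cells gave 1.72, 2.20 and 2.26 against 2.89, 2.74 and 3.10 FPKM (0.36 ± 0.08, adjusted p = 0.0169, and 0.0504 without enzalutamide replicate 3). TAPBP gave 16.4, 16.5 and 18.3 against 20.7, 20.3 and 19.0 FPKM (0.22 ± 0.05, adjusted p = 0.0186), a call that ended in 4 cases, without replicate 1 or 2 of either group (adjusted p = 0.0558 to 0.0588), and not by edgeR with 6 to 18 reads (0.11 ± 0.34). TAP1 did not pass (adjusted p = 0.156), and did without enzalutamide replicate 1 (adjusted p = 0.033).

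In MR49F cells HLA-E gave 4.37, 4.53 and 5.23 FPKM with vehicle and 5.66, 5.84 and 5.65 FPKM with enzalutamide, apart in all samples but with an adjusted p of 0.102 (0.24 ± 0.06). HLA-B (0.20 ± 0.06), TAP1 (0.22 ± 0.10) and TAPBP (0.14 ± 0.05) likewise did not pass (adjusted p = 0.112, 0.234 and 0.16). B2M differed by 0.03 ± 0.05 (adjusted p = 0.759). Without vehicle replicate 1, the library that stood apart, TAP1 gave 0.11 ± 0.04 (adjusted p = 0.178) and B2M turned to -0.02 ± 0.03 (adjusted p = 0.724), with HLA-E at 0.19, HLA-B at 0.16 and TAPBP at 0.12. The number of members passing stayed 0 without vehicle replicate 1, and was 1 without vehicle replicate 3 (HLA-E, adjusted p = 0.0421).

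**Figure D4:**
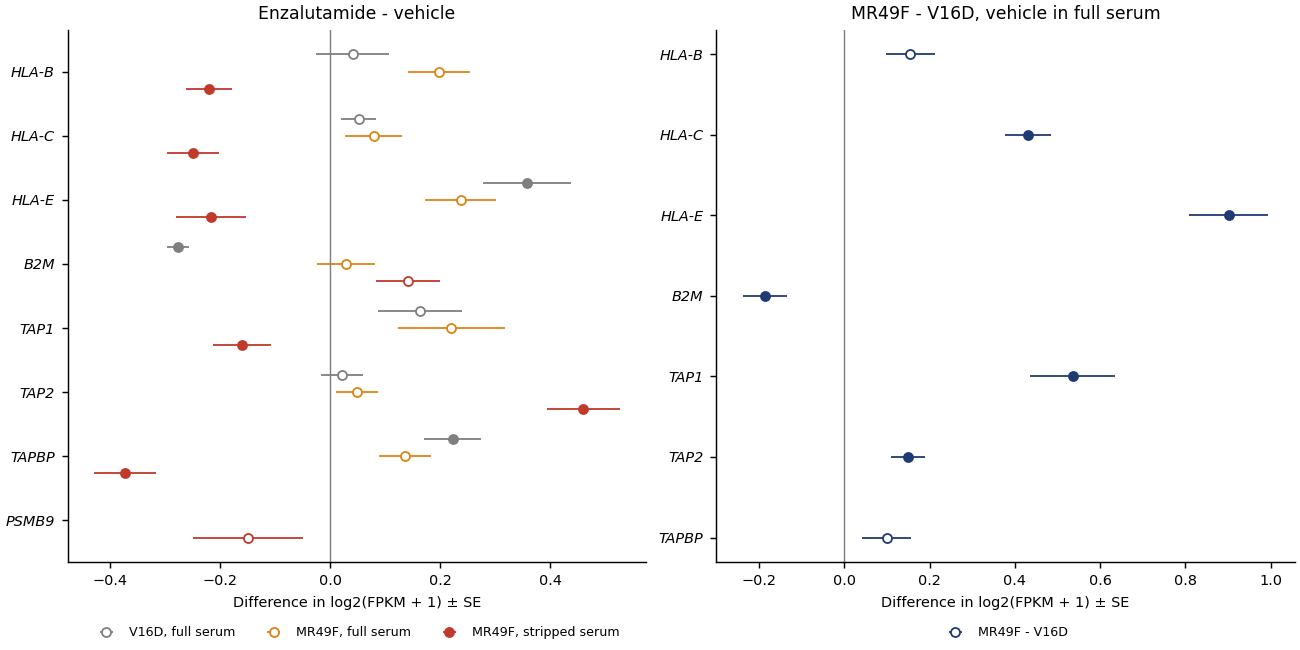
Difference between enzalutamide and vehicle on the log2(FPKM + 1) scale with its SE for each member in V16D cells in full serum, MR49F cells in full serum and MR49F cells in stripped serum (left), and between the lines with vehicle in full serum (right), filled points with an adjusted p of at most 0.05. On the left HLA-B, HLA-C, HLA-E, TAP1 and TAPBP lie at or above 0 in full serum and below 0 in stripped serum.

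The enzalutamide difference of B2M itself differed between the lines, by 0.30 ± 0.05 (MR49F minus V16D, adjusted p = 0.0069, and 0.29 ± 0.05 by edgeR, adjusted p = 0.000485). By limma it was 0.26 ± 0.03 without vehicle replicate 1 of MR49F (adjusted p = 0.000403). Earlier enzalutamide exposure of MR49F cannot be told apart from line in this term. B2M was the only 1 of 7 members to pass this interaction, against 6.04% of 13011 genes, and the only 1 of 4 by edgeR, against 6.95% of 14471. Between stripped and full serum in MR49F cells, the enzalutamide difference was more negative in stripped serum for TAPBP (-0.51 ± 0.08, adjusted p = 0.000521), HLA-E (-0.45 ± 0.09, adjusted p = 0.00402), HLA-B (-0.42 ± 0.07, adjusted p = 0.000802), TAP1 (-0.38 ± 0.12, adjusted p = 0.0267) and HLA-C (-0.33 ± 0.07, adjusted p = 0.00408), and more positive for TAP2 (0.41 ± 0.08, adjusted p = 0.00289). Without vehicle replicate 1 in full serum the same terms ran from -0.50 (TAPBP) to -0.27 (TAP1), with TAP2 at 0.42, and all 6 passed. These were 6 of 8 members against 34.1% of 12981 genes. By edgeR 0 of 3 passed, 0 at an unadjusted p under 0.05, against 11.4% of 14178. HLA-B turned to 0.17 ± 0.26 by edgeR, and the call of TAP1 ended in 5 cases, without stripped-serum vehicle replicate 2 or 3, stripped-serum enzalutamide replicate 3 or full-serum enzalutamide replicate 1 or 2 (adjusted p = 0.0506 to 0.0609). Serum and experiment cannot be told apart in this term.

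With vehicle in full serum, MR49F cells had more of several members than V16D cells, and line cannot be told apart from earlier enzalutamide exposure. HLA-E was 2.29-fold, TAP1 1.59-fold, HLA-C 1.36-fold and TAP2 1.12-fold higher, and B2M was at 0.880, with 5 of 7 members passing, 4 higher and 1 lower, against 62.6% of 12565 genes (32.7% higher, 29.9% lower), and 2 of 4 by edgeR against 63.7% of 14013. HLA-E gave 4.37 to 5.23 against 1.72 to 2.26 FPKM (0.90 ± 0.09, adjusted p = 0.000298) and TAP1 4.41, 5.76 and 5.83 against 3.12, 3.53 and 3.39 (0.54 ± 0.10, adjusted p = 0.00376). HLA-C gave 36.9, 38.2 and 34.1 against 25.8, 27.3 and 27.1 FPKM (0.43 ± 0.05, adjusted p = 0.000647, and 0.70 ± 0.11 by edgeR, adjusted p = 0.00012). The lines did not overlap in these genes. Without vehicle replicate 1 of MR49F the differences were 0.94 for HLA-E, 0.65 for TAP1, 0.42 for HLA-C, 0.16 for TAP2 and -0.14 for B2M, and all of these passed (adjusted p = 0.000213 to 0.0118).

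B2M passed narrowly (-0.19 ± 0.05, adjusted p = 0.0204, and -0.18 ± 0.04 by edgeR, adjusted p = 0.00341), and its call by limma ended without any 1 of the V16D replicates (adjusted p = 0.0637 to 0.0702). The call of TAP2 (0.15 ± 0.04, adjusted p = 0.0161) ended without V16D replicate 1 or 3 (adjusted p = 0.0708 and 0.0618), which left as few as 3 members. HLA-B (0.16 ± 0.06, adjusted p = 0.0548) passed without vehicle replicate 1 of MR49F, the library that stood apart (adjusted p = 0.0239), and without V16D replicate 1 (adjusted p = 0.0464), and TAPBP did not pass (0.10 ± 0.06, adjusted p = 0.172). Among the immune cell markers, CD68 (1.00 ± 0.08, adjusted p = 8.03e-05) and LYZ (0.37 ± 0.08, adjusted p = 0.00637) were higher in MR49F, and the summed level of all 8 was 5.17 to 5.69 FPKM per sample in V16D and 9.61 to 10.8 in MR49F, with CD3E at 0. Their part in the members' differences was not tested.

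Vehicle-treated MR49F cells in full and in stripped serum came from separate experiments, so serum and experiment cannot be told apart and the levels are only set side by side. HLA-B averaged 10.9 and 24.9 FPKM, HLA-C 36.4 and 63.1, TAPBP 18.3 and 35.2 and TAP1 5.33 and 9.98, in full and stripped serum. TAP2 averaged 14.7 and 6.42 FPKM, the reverse order, and B2M 208 and 200.2.

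Over all 10 conditions TAP2 varied most among members above 1 FPKM, with an 11.5-fold span of condition means from 15.3 FPKM (MR49F with enzalutamide in full serum) to 1.33 (DHT with JQ-1). The span was 5.34-fold for HLA-E, highest with enzalutamide and JQ-1 and lowest, at 2.06 FPKM, in V16D cells with vehicle, 2.98-fold for TAP1, 2.96-fold for TAPBP, 2.62-fold for HLA-B, 2.40-fold for HLA-C and 1.90-fold for B2M. With conditions ordered by mean, 9 neighbouring pairs can be compared for each gene. The samples of neighbours did not overlap in 6 pairs for HLA-C, 5 for HLA-E, TAP1 and TAP2, 4 for HLA-B and TAPBP, 2 for B2M and PSMB9 and 0 for PSMB8. The same count was not made over all genes, so these numbers have no background to be read against. For B2M, the 4 highest conditions were DHT with JQ-1 (372 FPKM), DHT (368), enzalutamide with JQ-1 (320.3) and JQ-1 (307), and the 6 others lay between 196 and 237.

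Across the means of the 10 conditions, which share libraries' serum and experiment, HLA-B and HLA-C ran together (Pearson r = 0.976, n = 10 conditions), as did HLA-E and PSMB9 (0.954). TAP1 and TAP2 did not (-0.370), nor did B2M and TAP1 (-0.134), and B2M ran against TAP2 (-0.777). Among 13524 genes, those nearest to B2M in pattern were ITGAV (0.949), TIPARP (0.948), IQUB (0.942), ROR1 (0.941) and LSS (0.940). Those nearest to TAP1 were FAM211A (0.974), PURA (0.971), GMIP (0.968), HDAC1 (0.966) and ZSWIM4 (0.960). These are descriptions of 10 means and carry no test.

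The other genes of the pathway, from lists kept the same for every comparison, are set beside the share of all genes. With DHT, all 4 testable genes of 9 other class I and class I-like chains were lower in FPKM, where 43.2% of all genes were. HFE, the iron-regulating chain that also binds B2M, was lower (-0.42 ± 0.08, adjusted p = 0.00127). Of 5 testable genes of peptide loading and trimming, 3 were higher and 2 lower with DHT, against 28.9% and 43.2% of all genes. The 3 were chaperones of the endoplasmic reticulum and rose by both tests: CANX (calnexin) by 0.60 ± 0.04 (adjusted p = 1.49e-06), PDIA3 (ERp57) by 0.59 ± 0.05 (adjusted p = 1.76e-05) and CALR (calreticulin) by 0.33 ± 0.06 (adjusted p = 0.000597). ERAP1, which trims peptides there, was lower in FPKM (-0.58 ± 0.06, adjusted p = 4.2e-05) and not by edgeR (-0.07). TAPBPL, a tapasin-related editor of the peptides, named after its values were seen, fell by both tests (-0.33 ± 0.08, adjusted p = 0.00399).

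The constitutive proteasome subunits that PSMB8 and PSMB9 replace were far more abundant, PSMB5 at 103 and PSMB6 at 87.4 FPKM in stripped-serum vehicle samples. With DHT, PSMB5 and PSMB6 did not pass, and neither did PSMB10, which is not constitutive but an immunoproteasome subunit outside the 9 members. PSMB7 was lower in FPKM with DHT (-0.14 ± 0.05, adjusted p = 0.0226), PSME1, a subunit of the activator cap, fell by both tests (-0.46 ± 0.05, adjusted p = 3.02e-05) and PSME3 rose (0.28 ± 0.04, adjusted p = 0.000236). With JQ-1, 6 of 8 proteasome genes were lower in FPKM and 1 higher, against 42.6% and 32.5% of all genes, and PSMB5 (-0.84 ± 0.05, adjusted p = 1.11e-06), PSMB10 (-0.70 ± 0.08, adjusted p = 5.11e-05) and PSMB7 (-0.50 ± 0.04, adjusted p = 5.84e-06) fell by both tests. PDIA3 (-0.31 ± 0.05, adjusted p = 0.000393) and ERAP1 (-0.87 ± 0.06, adjusted p = 3.23e-06) fell with JQ-1 as well.

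Of 14 testable regulators of class I transcription, 1 was higher and 6 were lower in FPKM with DHT, a share close to the 43.2% of all genes that were lower. NFKB1, which binds the kappaB motif, fell by both tests (-0.74 ± 0.05, adjusted p = 2.63e-06), as did STAT2 (-0.35 ± 0.04, adjusted p = 6.08e-05). IRF1, an interferon-induced activator, was lower in FPKM alone, at 1.49 with vehicle and 0.326 with DHT (-0.91 ± 0.06, adjusted p = 2.43e-06). It met the filter only through the vehicle samples, where it was high. Its entry into the test, and its place among the 6 lower, thus depended on the difference. NLRC5, the class I transactivator, averaged 0.440 FPKM with vehicle and 0.123 with DHT, under the filter. Of 7 testable genes of interferon signalling 6 were lower in FPKM with DHT, against the same 43.2%, with IFNGR2 (-0.94 ± 0.05, adjusted p = 5.98e-07) and JAK2 (-0.85 ± 0.05, adjusted p = 6.98e-07) falling by both tests. With JQ-1, 4 of 14 testable regulators were higher and 7 lower in FPKM, against 32.5% and 42.6% of all genes. Of 7 testable genes of interferon signalling, 2 were higher and 2 lower. JAK1 (0.79 ± 0.05, adjusted p = 1.19e-06) and NFYA (0.78 ± 0.04, adjusted p = 7.59e-07) rose with JQ-1, and IRF2 (-0.85 ± 0.07, adjusted p = 1.02e-05), RFX5 (-0.68 ± 0.04, adjusted p = 6.57e-07) and JAK2 (-0.94 ± 0.04, adjusted p = 1.96e-07) fell, all by both tests.

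**Figure D5:**
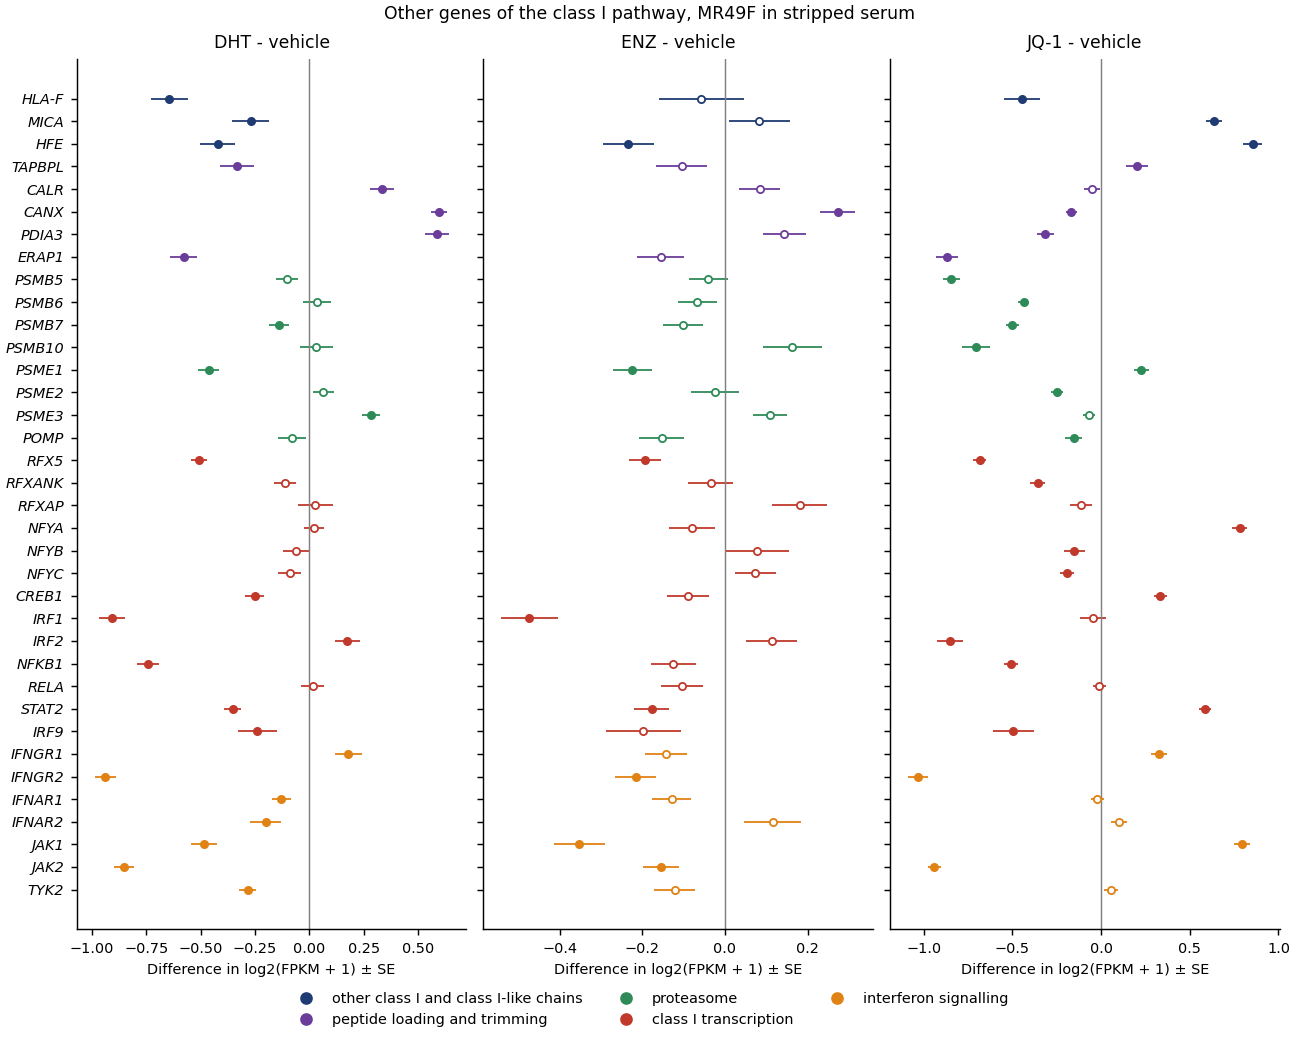
Differences on the log2(FPKM + 1) scale for other genes of the class I pathway, grouped by list, for DHT, enzalutamide and JQ-1 against vehicle in stripped serum, with bars for the SE and open points for an adjusted p above 0.05. The chaperones CANX, PDIA3 and CALR lie on the positive side with DHT, opposite to HFE, ERAP1 and IRF1.

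With enzalutamide in stripped serum the lists moved less, with HFE lower (-0.23 ± 0.06, adjusted p = 0.0156) and CANX higher (0.27 ± 0.04, adjusted p = 0.00112) by both tests, and IRF1 (-0.47 ± 0.07, adjusted p = 0.000751) and JAK1 (-0.35 ± 0.06, adjusted p = 0.0022) lower in FPKM alone. Between the lines in full serum, 4 of 8 proteasome genes were higher in MR49F, against 32.7% of all genes. NLRC5 was lower in MR49F, at 0.291 against 0.708 FPKM (-1.27 by edgeR, adjusted p = 9.72e-06). In V16D cells NLRC5 rose with enzalutamide (0.36 ± 0.06, adjusted p = 0.00436, and 0.73 by edgeR, adjusted p = 3.59e-11). Its vehicle samples alone did not meet the FPKM filter, so its entry into the limma test depended on the enzalutamide samples, where it was higher. The edgeR call does not rest on that filter.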

How the data were processed

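The authors aligned single-end reads of strand-specific poly(A) libraries to GRCh37 (hg19) with TopHat 2.0.9, per the paper and the submitters' processing notes. The deposited values are read counts per RefSeq gene symbol from HTSeq, not normalized, and FPKM per transcript from Cufflinks 2.1.1, with no replicates pooled by the authors beyond wells combined before RNA extraction. The strand setting is not given in the sources used here. FPKM rows were summed by gene symbol (23616 genes), and counts cover 23710 symbols.

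Members and gene lists were chosen with earlier results of these data known. In R 4.3.3, limma 3.58.1 (trend) was run on log2(FPKM + 1) for genes reaching 1 FPKM in 3 or more samples that enter the fit, with only the groups compared, or the 4 groups of an interaction. The plan put edgeR 4.0.16 (glmQLFTest, TMM, filterByExpr) on counts first. Since 6 of the 9 members had at most 18 counted reads in any sample and 0 in stripped serum, limma on FPKM was reported first and edgeR beside it, a change made after the files were seen. Adjustment was by Benjamini-Hochberg over all genes tested, with 0.05 as threshold. Full-serum samples held 13170504 to 21154962 counted reads and stripped-serum samples 982130 to 1813262. Both tests were checked on simulated data. For DHT against vehicle limma recovered 98.5% of genes changed 1.5-fold and edgeR 88%. The simulation changed only genes above a set level, with a fixed spread and an assumed number of reads per FPKM. These rates therefore do not apply to members with few or no counted reads.

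Named genes were the 9 members, KLK3, for each pathway list up to 3 with the largest differences among those passing (by both tests in stripped serum), 10 further genes (NLRC5, IRF1, JAK1, PSMB5, PSMB6, PSMB7, PSMB10 and ERAP1 among them, the rest not reported here), and the 5 genes most like B2M and TAP1. Samples were taken as paired only if all 3 same-numbered replicates correlated above 0.1 between groups, after group means were removed. This held in none of the comparisons, which does not exclude pairing. Alternatives were log2(FPKM + 0.1), no filter, DESeq2 1.42.0, other size factors, a replicate block, a single fit and leaving out each library. Promoters came from RefSeq (GRCh38.p14, 8 of 9 members matched) and gene positions from GENCODE lifted to GRCh37.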

Additional observations from a re-analysis of the deposited data

Results flagged for a closer look

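The differences below were singled out because the difference between 2 treatment effects was itself tested and passed (limma on log2(FPKM + 1), Benjamini-Hochberg adjusted over all genes). In full serum the enzalutamide effect on B2M differed by 0.304 between MR49F and V16D cells (adjusted p = 0.0069). Line and earlier enzalutamide exposure cannot be told apart in it. In MR49F cells the enzalutamide effect in stripped minus full serum was -0.418 for HLA-B, -0.329 for HLA-C, -0.454 for HLA-E, -0.381 for TAP1, 0.411 for TAP2 and -0.509 for TAPBP, and serum and experiment cannot be told apart there.

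With minus without JQ-1, the enzalutamide effect in stripped serum was 0.238 for TAP1, -0.559 for TAP2 and 0.266 for TAPBP. The DHT effect was 0.446 for HLA-B, 0.228 for HLA-C, 0.388 for HLA-E, -0.598 for B2M, 0.824 for TAP1, -0.454 for TAP2 and 0.448 for TAPBP. TAP2 was the only member to pass as lower with JQ-1 for both ligands, B2M being lower for enzalutamide without passing. In the terms on stripped serum, counts gave a test for B2M, HLA-B and HLA-C alone.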

How the results depend on the processing

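The calls for B2M, TAP1, HLA-E and TAPBP with DHT, and for TAP2 and TAPBP in all 3 JQ-1 comparisons, held under every alternative run on FPKM. Values that passed kept their call in 291 cases and lost it in 7 under other FPKM settings, and in 443 and 37 cases without a single library. None of the values that passed changed sign in these. By edgeR on counts, which covers at most 4 members, fewer passed: 1 with enzalutamide in V16D, 2 between the lines, 0 with enzalutamide in stripped serum, 2 with DHT, 1 for DHT against enzalutamide, 1 with JQ-1, 1 and 0 with JQ-1 added to enzalutamide and DHT, and 0, 0 and 1 in the interactions of serum with enzalutamide, JQ-1 with enzalutamide and JQ-1 with DHT. Among count tests, DESeq2 gave 1 for DHT (edgeR 2) and 0 for JQ-1 with DHT (edgeR 1), and for DHT with JQ-1 against DHT a replicate block and all groups in a single fit gave 1 each (edgeR 0).

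Signs turned by edgeR on counts were those of HLA-B with enzalutamide in V16D (-0.0065), in MR49F in full serum (-0.095) and stripped serum (0.029), on adding JQ-1 to enzalutamide (-0.12), and in the interactions with line (-0.095), serum (0.17) and JQ-1 (-0.39). The same held for HLA-C with enzalutamide in V16D (-0.0030), B2M with enzalutamide in MR49F in full serum (-0.013) and in its interaction with JQ-1 (0.12), and TAPBP between the lines (-0.46). Of these only HLA-B in stripped serum, on adding JQ-1 and in the serum interaction had passed by limma. The cause was not tested.

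Median-of-ratios scaling, like the limma fits with a block or with all groups, was chosen after seeing the data. It shifted the median of all genes by at most 0.0818, moved members passing from 6 to 7 with DHT (TAP2), from 6 to 7 with JQ-1 (HLA-C) and from 3 to 6 in the JQ-1 by enzalutamide interaction, and turned TAP2 with enzalutamide in V16D (-0.0050) and B2M in MR49F in full serum (-0.013), neither of which had passed. Among all genes passing, the percentage higher went from 58.4 to 47.4 (V16D enzalutamide), 54.6 to 43.7 (MR49F full serum), 40.1 to 50.6 (DHT) and 36.4 to 50.2 (DHT against enzalutamide). The replicate numbers met the set rule for pairing in none of the comparisons. A replicate block left 5 of 8 members with enzalutamide and 5 of 8 with JQ-1 in stripped serum (6 without it), and ended the call of TAPBP in V16D (adjusted p = 0.0607). With no filter 4 members passed with enzalutamide in stripped serum, and with all stripped-serum groups in a single limma fit 7 of 8 did, B2M among them.

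Without single libraries, members passing ranged from 2 to 3 (V16D enzalutamide), 0 to 1 (MR49F full serum), 3 to 6 (lines), 4 to 6 (enzalutamide), 6 to 7 (DHT), 7 to 7 (DHT against enzalutamide), 5 to 6 (JQ-1), 7 to 8 and 6 to 6 (JQ-1 added to enzalutamide and DHT), and in interactions 1 to 1 (line), 5 to 6 (serum), 1 to 4 (JQ-1 with enzalutamide) and 7 to 8 (JQ-1 with DHT). Signs turned in values that had not passed, which ranged from -0.020 to 0.099 (HLA-B) and -0.0034 to 0.051 (TAP2) in V16D, -0.019 to 0.064 for B2M in MR49F in full serum, -0.0069 to 0.082 for HLA-B with JQ-1, -0.016 to 0.062 for B2M with DHT and JQ-1, and in the line interaction -0.053 to 0.12 (TAP1), -0.018 to 0.063 (HLA-C) and -0.0031 to 0.052 (TAP2). HLA-B and HLA-C had 26 to 133 reads per sample in stripped serum, and whether this depth limits their edgeR calls was not tested.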

Other observations

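Genes of the class II pathway, which presents peptides taken up from outside the cell, were nearly silent in these epithelial cells. Of 10 such genes 1 to 3 averaged at least 1 FPKM in a condition, and HLA-DMA, the peptide exchange factor, was the one most often above it. In stripped serum HLA-DMA averaged 1.81 FPKM with vehicle, 3.14 with enzalutamide and 5.53 with DHT, and was higher in FPKM with enzalutamide (0.56 ± 0.09, adjusted p = 0.0011 by limma) and with DHT (1.22 ± 0.08, adjusted p = 2.43e-06 by limma). JQ-1 on DHT gave 1.61 FPKM (-1.32 ± 0.06, adjusted p = 2.85e-07 by limma). It was thus opposite in direction to HLA-B and TAP1 with DHT, and it had too few counted reads for edgeR.

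HLA-DMA and MICA were chosen after their values were seen. MICA, a stress-induced class I-like chain that binds no B2M, averaged 7.11 FPKM with vehicle and 11.6 with JQ-1 in stripped serum (0.64 ± 0.04, adjusted p = 3e-06 by limma). The ratio of B2M to HLA-B plus HLA-C FPKM was 6.51 ± 0.03 (SD, n = 3) in V16D cells with vehicle and 4.41 ± 0.34 in MR49F cells with vehicle in full serum, and 2.28 ± 0.12 in stripped serum.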
